A study of Mus musculus with 12 samples.

Results

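The genes described here are 10 transcripts used to read tubular injury and epithelial structure in the kidney: Havcr1, Lcn2, Vcam1, Cd44 and Vim, which are injury markers, the simple keratins Krt7, Krt8, Krt18 and Krt19, and the transcription factor Sox4. They were found by the gene name that the scanner files give each probe, which yielded 18 probes among 41174 non-control probes on the array, and every probe is described separately. Of these, 11 probes of 8 genes exceeded background clearly, by the scanner software's own mark, on 4 or more of 12 arrays and entered the tests, with 25819 probes tested in all. Lcn2 and Krt19 had no probe that met this condition.

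Mice 2 and 4 were male, and mice 1 and 3 female. Their renal tubules were put in suspension and passed through a COPAS, a flow sorter for large particles. Each mouse gave 3 fractions, with 1 array for each: EGFP+ tubules, which carry the green fluorescent protein and are the distal convoluted tubule (DCT) per the series' design text, ALL tubules, which are the total suspension, and EGFP- tubules, which lack the fluorescence. No injury or treatment is named in the labels. The sources used here do not give what drives EGFP, nor the strain and age of the mice. The ALL fraction holds EGFP+ and EGFP- tubules together, and the 3 fractions of a mouse come from the same animal.

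A level is the log2 processed signal of a probe minus the array's 75th percentile, so that 0 is the upper quartile of that array and each step of 1 is a doubling. The 75th percentiles ran from 922 to 2270 in intensity, lowest on the ALL and EGFP- arrays of mouse 4 (922 and 1007), and 53.95% to 65.61% of probes were well above background. Arrays of the same fraction correlated at 0.9638 to 0.9921 across tested probes. The label of the sorted fraction was checked against 6 marker genes of the DCT, all of which were higher in EGFP+ than in EGFP- tubules. Their summed level, in multiples of the array's 75th percentile, was 521.5 to 648 in EGFP+, 98.1 to 139.6 in ALL and 25.2 to 38.4 in EGFP- tubules.

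After damage, surviving tubule cells lose polarity, take on mesenchymal features and expose surface proteins that healthy cells carry at low levels. Havcr1 (kidney injury molecule) appears on the apical face of injured proximal tubules and binds dying cells, Lcn2 (NGAL) is a secreted carrier of iron-binding siderophores made by distal segments after injury, Vcam1 and Cd44 are adhesion receptors for integrins and for hyaluronan, and Vim is the intermediate filament of mesenchymal cells. Simple keratins form the filaments of single-layered epithelia, in which a type II keratin (Krt7 or Krt8) pairs with a type I keratin (Krt18 or Krt19).

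Some probes of the keratins and of Havcr1 are shown here with their positions in the mm8 build, as the scanner files give them, 5′ to 3′. Probes of Vcam1, Cd44 and Vim, whose results also differ within the gene, are not printed. No annotation of that build was used, so exon and intron are not assigned. The probes of Krt8 (chr15:101824949-101825008) and Krt18 (chr15:101859944-101860003) are shown because Krt18 was called higher in EGFP+ than in EGFP- tubules and its partner Krt8 was not. The capitals mark the longest run they share, 11 bases, which was also the longest shared run in any of the 13 pairs of probes from different keratin genes. The Krt7 probe (chr15:101251321-101251380) and the Krt19 probe (chr11:99957168-99957227) belong to the keratin with the highest fold and to the one near background. The Havcr1 probes A_51_P371745 (chr11:46599598-46599657) and A_51_P371740 (chr11:46617168-46621955) lie apart in the gene, and the 60 bases of the second are spread over 4788 genomic bases.
Krt8 A_51_P242399: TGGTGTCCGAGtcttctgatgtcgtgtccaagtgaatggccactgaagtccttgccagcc
Krt18 A_51_P324814: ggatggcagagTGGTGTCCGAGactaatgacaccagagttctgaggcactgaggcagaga
Krt7 A_52_P410685: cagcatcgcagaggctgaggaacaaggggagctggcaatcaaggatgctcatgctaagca
Krt19 A_51_P356642: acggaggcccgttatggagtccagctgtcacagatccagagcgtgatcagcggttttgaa
Havcr1 A_51_P371745: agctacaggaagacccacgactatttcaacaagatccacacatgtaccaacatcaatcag
Havcr1 A_51_P371740: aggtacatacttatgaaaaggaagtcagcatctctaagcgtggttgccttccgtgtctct

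Of the 11 tested probes, 7 were well above background on all 12 arrays, and limma called 5 of these different in EGFP+ relative to EGFP- tubules. Both probes of Krt7 and those of Krt18 and Sox4 were higher, 2.35-fold to 5.13-fold, and Vim was lower. Both Krt8 probes did not pass the threshold of 0.05 for the adjusted p. Across the array 54.8% of the probes well above background on every array passed in this comparison, 35.1% higher and 19.6% lower, so a call by itself is the common outcome (56.7% over all tested probes). The median difference was 1.23 over the 7 probes and 0.18 over all such probes. In 5 of the 7 the EGFP+ levels lay wholly above or below the EGFP- levels, which was true of 53.5% of all such probes. The other 4 tested probes, of Havcr1, Vcam1 (2 probes) and Cd44, met the condition for testing through ALL and EGFP- arrays, so that a lower level in EGFP+ tubules was favoured by their entry. They passed as lower, are not counted here, and are given with the number of arrays that measured them.

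**Figure D1:**
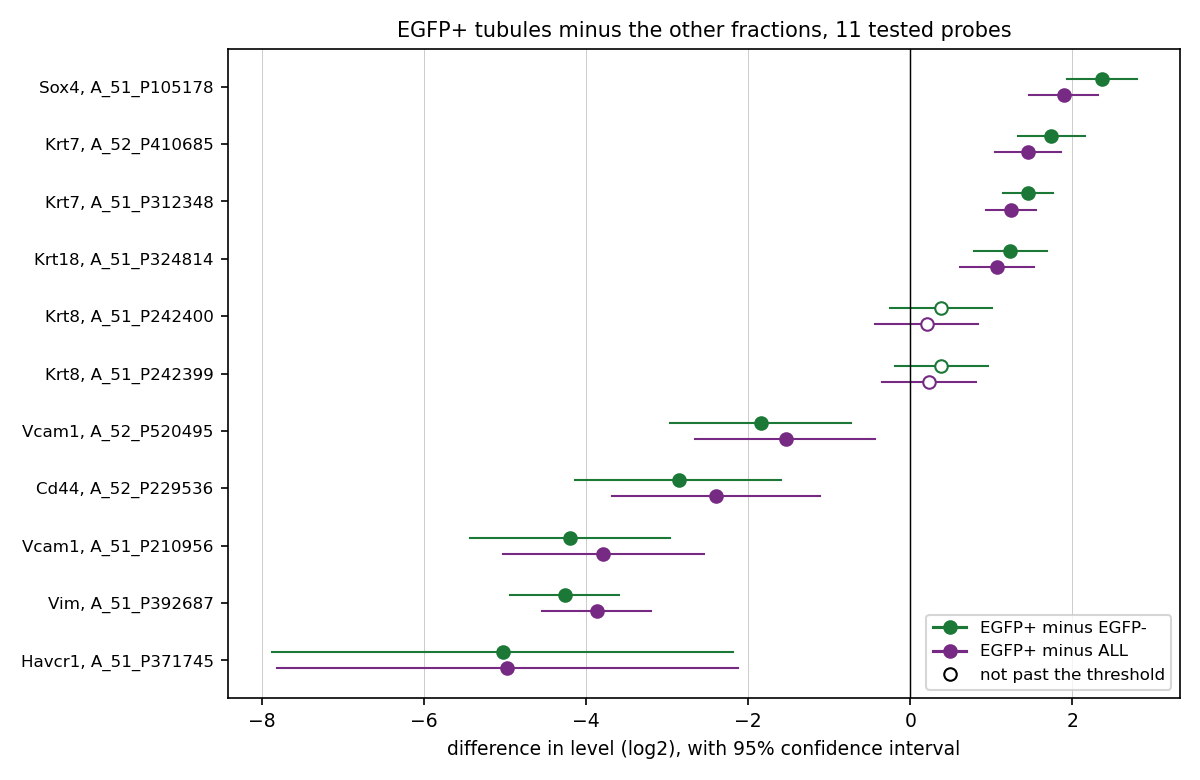
Difference in level (log2, horizontal axis) between EGFP+ tubules and EGFP- (green) or ALL (purple) tubules for the 11 tested probes, with 95% confidence intervals from the limma fit over 12 arrays. Filled points passed the threshold. The points of Cd44 and Vcam1 probe A_52_P520495 rest on EGFP+ arrays of which none was well above background, and those of Havcr1 and the other Vcam1 probe on 2 and 1 that were. Sox4, Krt7 and Krt18 lie to the right of 0 and Havcr1, Vim, Vcam1 and Cd44 to the left, and the intervals of both Krt8 probes include 0.

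Among the keratins, Krt7, a type II keratin of ducts and simple epithelia, had the largest excess in EGFP+ tubules. Its probe A_51_P312348 (chr15:101255775-101255834) had levels of 5.66, 5.87, 5.81 and 5.75 in the EGFP+ tubules of mice 1 to 4, against 4.71, 4.61, 4.54 and 4.25 in ALL tubules and 4.53, 4.28, 4.47 and 4.00 in EGFP- tubules. Every EGFP+ array was above every other array. The difference from EGFP- was 1.45 ± 0.14 (SE), 2.74-fold (95% confidence interval 2.21 to 3.39, adjusted p = 3.42e-06 in limma). The probe A_52_P410685, printed above, had levels of 2.70, 2.78, 2.82 and 2.67 in EGFP+ tubules, against 1.49, 1.50, 1.37 and 0.80 in ALL and 1.31, 1.08, 1.09 and 0.53 in EGFP- tubules. Here too the EGFP+ arrays did not overlap the others, and they exceeded EGFP- by 1.74 ± 0.19 (3.34-fold, limma adjusted p = 8.64e-06). Both probes were higher in EGFP+ tubules in 4 of 4 mice.

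Krt18, the type I partner of Krt8, was also higher. The levels were 3.33, 3.43, 3.73 and 3.18 in EGFP+ tubules of mice 1 to 4, against 2.48, 2.46, 2.66 and 1.78 in ALL and 2.31, 2.29, 2.36 and 1.78 in EGFP- tubules. All EGFP+ arrays exceeded all others, and mouse 4 was lowest in each fraction. Krt18 exceeded EGFP- by 1.23 ± 0.21 (2.35-fold, interval 1.71 to 3.22, limma adjusted p = 0.000326), and it lay between 1.03 and 1.40 in the 4 mice.

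Krt8, the type II partner, did not pass. Probe A_51_P242399 had levels of 3.85, 4.00, 4.02 and 4.01 in EGFP+ tubules, against 3.48, 3.88, 3.27 and 4.34 in ALL and 3.46, 3.54, 3.08 and 4.29 in EGFP- tubules. The EGFP+ levels lay close together and the other fractions spread around them, with the ALL and EGFP- values of mouse 4 above every EGFP+ value. The difference from EGFP- was 0.38 ± 0.26, with an interval of -0.19 to 0.96 (limma adjusted p = 0.236). The interval of the log2 difference for Krt18, 0.78 to 1.69, overlaps this one. Those of the Krt7 probes, 1.14 to 1.76 and 1.33 to 2.15, lie above it. Probe A_51_P242400 (chr15:101824817-101824876) gave 0.38 ± 0.29 (interval -0.25 to 1.01, limma adjusted p = 0.28). In mice 1, 2 and 3 the EGFP+ level exceeded the EGFP- level by 0.40, 0.46 and 0.94 at the first probe and by 0.67, 0.55 and 0.86 at the second, whereas in mouse 4 it was -0.27 and -0.56 relative to EGFP-. Without mouse 4 the differences were 0.60 ± 0.19 and 0.69 ± 0.14, both past the threshold (limma adjusted p = 0.0232 and 0.00317). These arrays of mouse 4 were also the dimmest of the 12, and the part this plays was not tested. Krt8 and Krt18 are neighbours in the RefSeq annotation of GRCm38.p6, with 2 predicted genes (Gm36026 and Gm41404) between them. Whether their differences differ from each other was not tested.

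Krt19, a type I keratin without the usual tail domain, was near background. Its levels were -5.88, -6.07, -6.81 and -6.92 in EGFP+ tubules, against -4.61, -5.85, -3.96 and -5.55 in ALL and -4.67, -6.14, -5.18 and -6.03 in EGFP- tubules. No EGFP+ array was well above background, against 2 ALL arrays and 1 EGFP- array, all of female mice. As the other ALL arrays were not well above background either, no lower bound on the fold from ALL is given. The probe entered a fit only when the filter on dim probes was dropped, where the difference was -0.91 from EGFP- (limma adjusted p = 0.165) and -1.43 from ALL (adjusted p = 0.032).

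**Figure D2:**
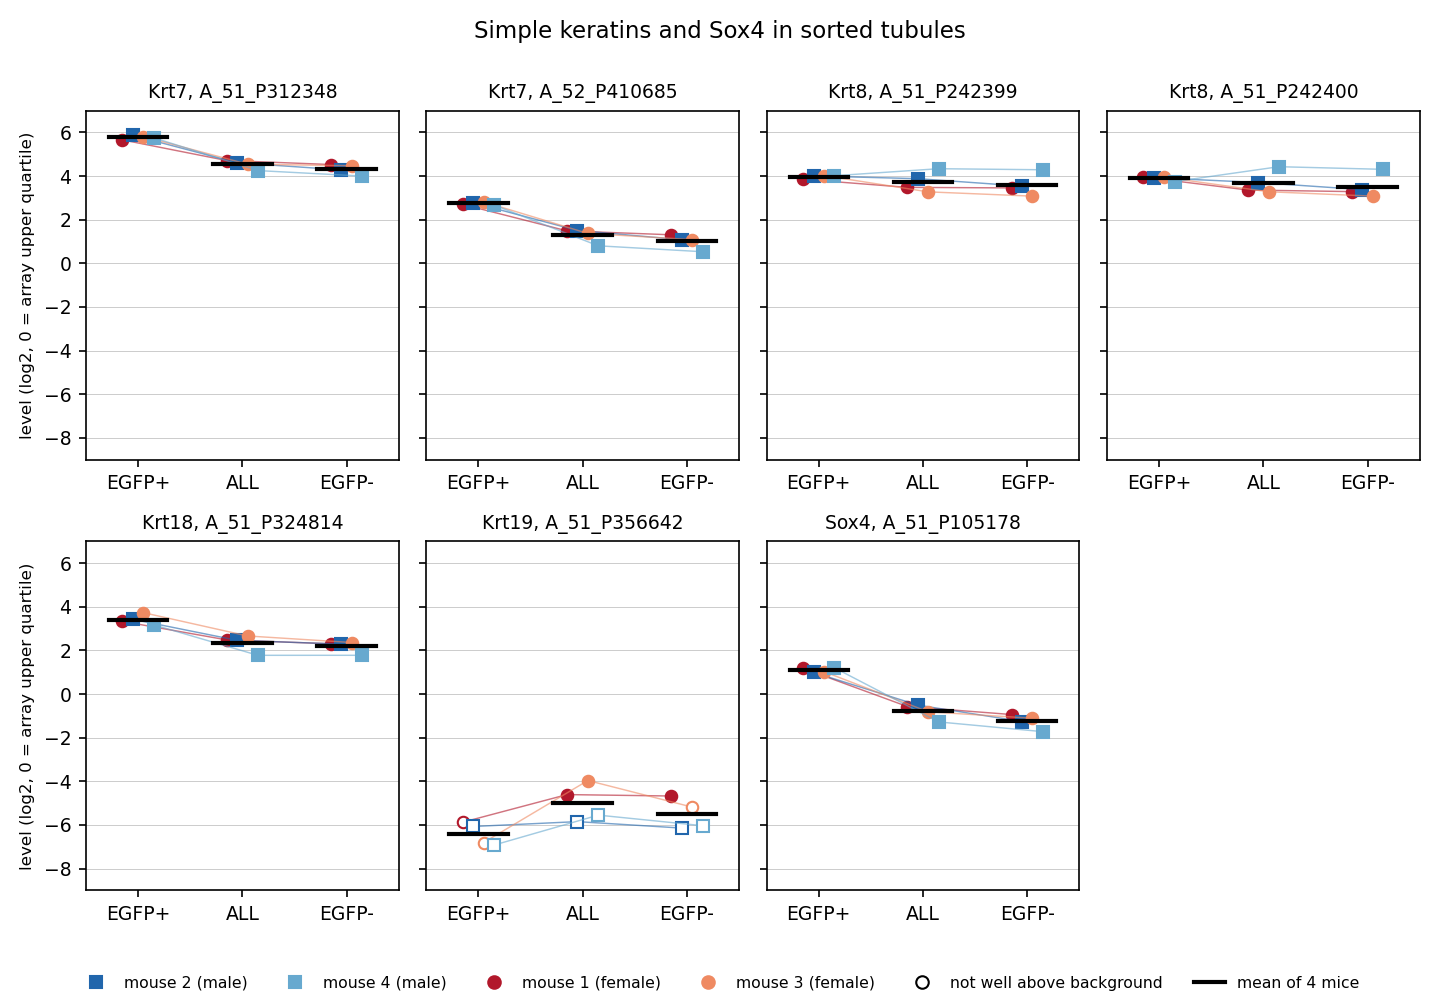
Level (log2 relative to the array's 75th percentile, vertical axis) of each keratin probe and of Sox4 in EGFP+, ALL and EGFP- tubules. Squares are male and circles female mice, open symbols are arrays not well above background, lines join the fractions of a mouse and bars are means. EGFP+ lies above the other fractions for Krt7, Krt18 and Sox4, and for Krt8 mouse 4 runs opposite to the other mice.

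Sox4, a SoxC transcription factor of developing epithelium that is induced in injured tubules, was the member with the largest excess in EGFP+ tubules. The levels at its probe (chr13:28959662-28959721) were 1.18, 0.99, 1.03 and 1.21 in EGFP+ tubules of mice 1 to 4, against -0.57, -0.51, -0.81 and -1.28 in ALL and -0.94, -1.26, -1.11 and -1.72 in EGFP- tubules. All 4 EGFP+ arrays lay above their upper quartile, and every array of the other fractions lay below it. Sox4 exceeded its EGFP- level by 2.36 ± 0.20 (5.13-fold, interval 3.81 to 6.92, limma adjusted p = 8.98e-07), and it was 2.12, 2.25, 2.14 and 2.93 in the 4 mice. Of the other SoxC factors, Sox11 was higher (2.92 ± 0.50, limma adjusted p = 0.000345, well above background on 1 of 4 EGFP- arrays). Sox12 averaged -4.08 in EGFP+ and -4.55 in EGFP- tubules and did not pass.

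Vim encodes vimentin, the filament protein of mesenchymal cells, endothelium and podocytes, and re-expressed by dedifferentiated tubule cells. Its probe A_51_P392687 (chr2:13500458-13500517) had levels of -0.88, -0.98, -1.14 and -1.51 in EGFP+ tubules of mice 1 to 4, against 3.17, 2.87, 3.03 and 1.90 in ALL and 3.61, 3.13, 3.37 and 2.42 in EGFP- tubules. The EGFP+ arrays were all below the others yet well above background in 4 of 4 mice. The value of EGFP+ minus EGFP- was -4.26 ± 0.31, 19.2-fold lower (interval 12.03 to 30.6, limma adjusted p = 2.69e-07), and under normexp, the alternative background correction, it was -3.94. The probe A_52_P287532, named from another accession, was well above background only on the ALL array of mouse 1, with a level of -3.15. In bulk tubules, fewer cells of a type and less RNA per cell cannot be told apart.

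Vcam1, the endothelial and tubular ligand of integrin alpha-4, was low in EGFP+ tubules. Probe A_51_P210956 (chr3:116102302-116102361) had levels of -4.59, -5.68, -6.61 and -6.93 in EGFP+ tubules, against -0.99, -2.42, -2.24 and -3.01 in ALL and -0.71, -1.84, -2.01 and -2.44 in EGFP- tubules. Only the EGFP+ array of mouse 1 was well above background, and mouse 1 was also highest in the other fractions. The fitted difference from EGFP- was -4.20 ± 0.56 (limma adjusted p = 5.26e-05). With the dim EGFP+ arrays set to the lowest signal well above background, or to their own where higher, the level was at least 9.77-fold lower than in EGFP-. Under normexp the difference was -1.04 and no longer passed (adjusted p = 0.0639). Probe A_52_P520495 (chr3:116118039-116118098) differed by -1.84 ± 0.51 (limma adjusted p = 0.0087), but it was well above background on 0 EGFP+, 2 ALL and 2 EGFP- arrays, the sign turned under normexp (0.55), and the difference no longer passed without mouse 2 (-1.76, adjusted p = 0.0629) or without mouse 3 (-1.83, adjusted p = 0.0505). The probe A_52_P462332 did not exceed background on any array.

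Cd44, the receptor for hyaluronan, was measured in ALL and EGFP- tubules and not above background in EGFP+ tubules. Probe A_52_P229536 (chr2:102613589-102613648) had levels of -5.96, -7.11, -6.37 and -6.95 in EGFP+ tubules, against -3.28, -4.05, -3.50 and -5.97 in ALL and -3.39, -3.80, -2.85 and -4.90 in EGFP- tubules. Mouse 4 was lowest in ALL and EGFP- tubules, and there its arrays were not well above background either. With the EGFP+ arrays raised to a floor, EGFP+ was 2.86-fold lower than EGFP- (fitted difference -2.86 ± 0.58, limma adjusted p = 0.00128). This fold sets the EGFP- mean against, on each EGFP+ array, the higher of the probe's own signal and the lowest signal well above background. It is not a strict minimum, as the EGFP- mean includes the dim array of mouse 4. Under normexp the difference was 0.19 and did not pass. Probe A_52_P523459, printed in 10 spots per array, was well above background on 0 EGFP+, 2 ALL and 1 EGFP- arrays, and A_51_P407053 on none. Without the filter on dim probes A_52_P523459 differed by -1.46 from EGFP- (limma adjusted p = 0.016), and A_51_P407053 by 0.16 (adjusted p = 0.793).

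Havcr1 was lower in EGFP+ tubules. Probe A_51_P371745 had levels of -7.67, -3.20, -6.03 and -3.65 in EGFP+ tubules of mice 1 to 4, against -2.23, 1.72, -1.73 and 1.55 in ALL and -1.97, 1.72, -1.70 and 1.53 in EGFP- tubules. Within each fraction the male mice (2 and 4) lay above the female mice (1 and 3), and within each mouse EGFP+ lay below the other fractions. Only the EGFP+ arrays of the 2 males were well above background. With the female arrays set to the floor used for Vcam1, the level was at least 18.7-fold lower than in EGFP-. The fitted difference was -5.03 ± 1.30 (limma adjusted p = 0.00582), and across mice it was -5.70, -4.93, -4.32 and -5.18. With mouse as a block its SE was 0.20 at the same difference, and under normexp the difference was -2.90 (limma adjusted p = 0.0441). The probe A_51_P371740 was well above background on the ALL and EGFP- arrays of mouse 2 alone, at -5.04 and -4.63.

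Lcn2 could not be compared. Its only probe (chr2:32207526-32207770) exceeded background on 0 of 12 arrays. The mean level of -7.16 ± 0.23 in EGFP+ tubules stood beside -7.55 ± 0.59 in ALL tubules and -6.83 ± 0.99 in EGFP- tubules (SD over 4 mice). These values are at the background and carry no order.

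**Figure D3:**
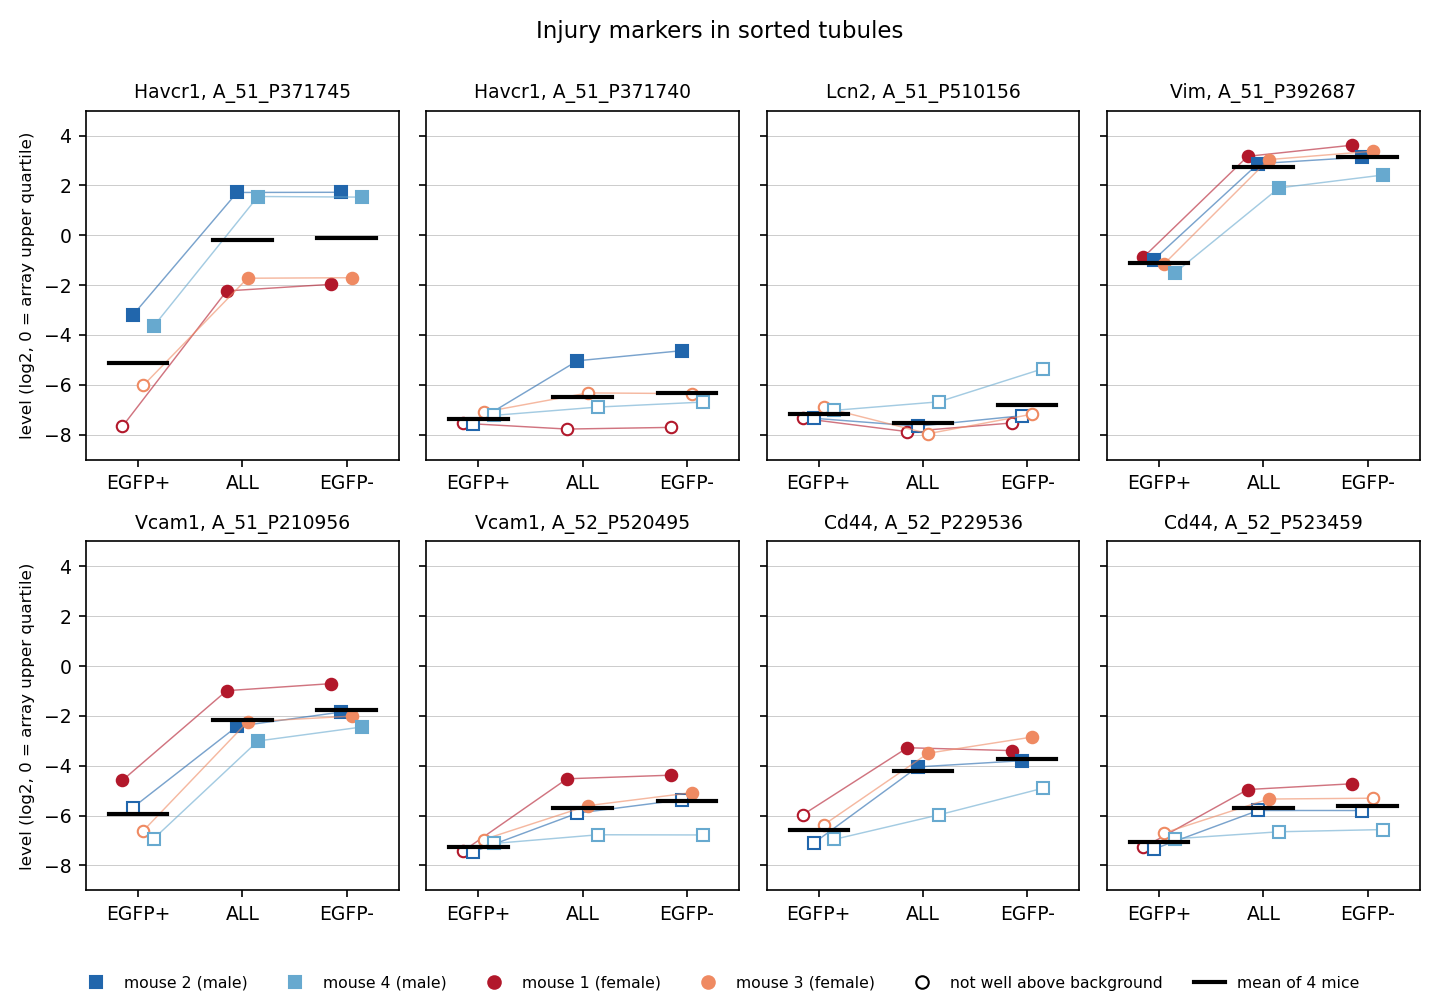
Level (log2 relative to the array's 75th percentile, vertical axis) of 8 probes of Havcr1, Lcn2, Vim, Vcam1 and Cd44 in EGFP+, ALL and EGFP- tubules, with the same symbols as for the keratins. In each mouse EGFP+ lies below the other fractions at the main probes of Havcr1, Vim, Vcam1 and Cd44, although for Cd44 the ALL level of mouse 4 lies just below the EGFP+ level of mouse 1, and all Lcn2 symbols are open.

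The arrays lay on 3 slides, each with arrays of more than 1 fraction, and the within-slide differences between EGFP+ and EGFP- can set different mice against each other. Within slides 1, 2 and 3 these differences were 2.03, 2.29 and 2.62 for Sox4, 1.23, 1.53 and 1.52 for Krt7 probe A_51_P312348, and 1.07, 1.44 and 1.11 for Krt18. They were -4.54, -4.28 and -4.41 for Vim, -4.42, -4.77 and -4.70 for Vcam1 probe A_51_P210956, and -3.14, -2.57 and -3.08 for Cd44. All of these kept the sign of the pooled difference. For Havcr1 they were -3.47, -7.75 and -3.56, where slide 2 sets a female EGFP+ array against a male EGFP- array. With slide as a block the same 9 probes passed, the 4 that not every array measured included.

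Against ALL tubules the same 5 of the 7 probes well above background on every array passed in the same directions in the limma fit, 4 higher and 1 lower, where 52.3% of such probes passed, 33.8% higher and 18.5% lower (54.0% over all tested probes). This comparison shares its EGFP+ arrays with the one above. The differences were 1.89 ± 0.20 for Sox4, 1.24 ± 0.14 and 1.45 ± 0.19 for the Krt7 probes and 1.07 ± 0.21 for Krt18. They were -3.87 ± 0.31 for Vim, -3.79 ± 0.56 and -1.54 ± 0.51 for the Vcam1 probes, and -4.97 ± 1.30 for Havcr1. On the same floor as above, Havcr1 was at least 17.9-fold and Vcam1 probe A_51_P210956 at least 7.34-fold lower than in ALL. On its floor Cd44 was 2.08-fold lower than in ALL, which is not a strict minimum. The ALL array of mouse 4 was dim, and by it the groups overlapped. Without mouse 1, 2 or 3 the difference at Vcam1 probe A_52_P520495 was -1.09, -1.54 or -1.60 and no longer passed (adjusted p = 0.0822, 0.0988 and 0.0826). Under normexp neither Vcam1 probe passed (adjusted p = 0.0965 and 0.872), nor did Cd44 (0.706) or Havcr1 (0.0601).

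Between ALL and EGFP- tubules none of the 11 member probes passed in the limma fit, and the groups overlapped in all 11. Over all tested probes only 1.08% passed and 2.56% had groups that did not overlap, so none among 11 is the common outcome. The differences ran from -0.46 for Cd44 to 0.47 for Sox4. Within mice some had 1 sign throughout. ALL exceeded EGFP- in 4 of 4 mice for Sox4 (by 0.37, 0.75, 0.30 and 0.45), both Krt7 probes and both Krt8 probes, and in 0 of 4 for Vim (-0.45, -0.26, -0.34 and -0.52) and Vcam1 probe A_51_P210956. With mouse as a block the differences were 0.47 ± 0.16 for Sox4 and -0.39 ± 0.13 for Vim, and neither passed (limma adjusted p = 0.515 and 0.482). In level order, EGFP+ lay apart from both other fractions for Krt7, Krt18, Sox4 and Vim, while the levels of ALL and EGFP- overlapped.

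Havcr1 also differed by sex. Averaged over the fractions of each mouse, its level was -0.06 in males and -3.56 in females, a difference of 3.50 ± 0.30 (11.3-fold, 2 mice against 2, limma adjusted p = 0.0293), where 1.05% of all tested probes passed. Within fractions males exceeded females by 3.61 in ALL and by 3.46 in EGFP- tubules. In EGFP+ tubules males were at least 3.51-fold higher, as neither female array was well above background. The difference between EGFP+ and EGFP- was -5.05 in males and -5.01 in females, and its dependence on sex was -0.04 ± 0.50 (limma adjusted p = 0.98). The female value rests on EGFP+ arrays not well above background, so this fit cannot tell whether the difference depends on sex. No other tested member probe passed for sex, with adjusted p of 0.191 or more. When probes near background were also tested, the adjusted p for Havcr1 was 0.078 at the same difference.

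**Figure D4:**
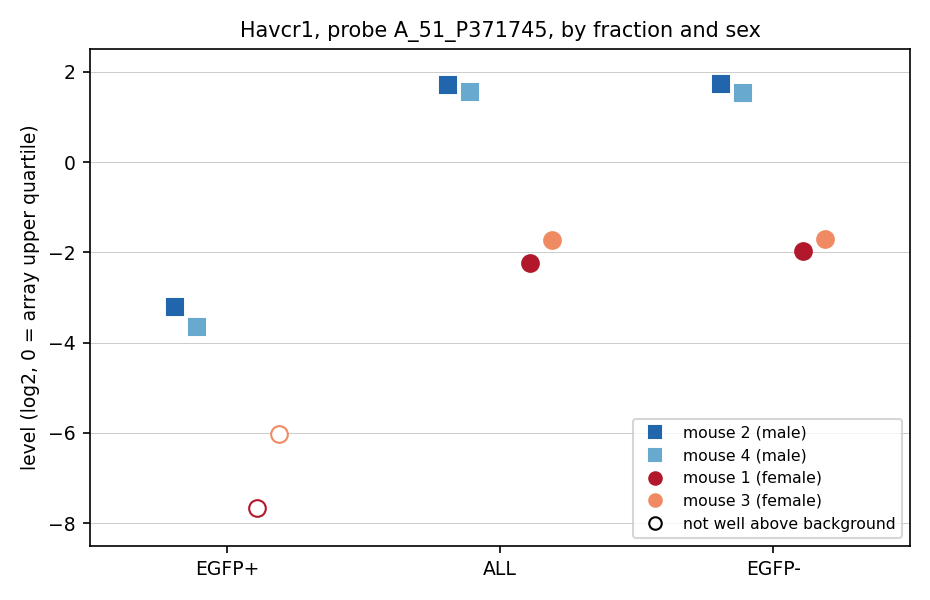
Level of Havcr1 probe A_51_P371745 (log2 relative to the array's 75th percentile, vertical axis) by fraction, with male mice as squares left of female mice as circles. Males lie above females in every fraction, and the open symbols of both females in EGFP+ tubules are not well above background.

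Markers of other cells also differed between the fractions. All 9 proximal tubule markers were lower in EGFP+ than in EGFP- tubules, with a summed level over 5 of them of 1.83 to 4.16 in EGFP+, 75.6 to 96.1 in ALL and 81.0 to 108.7 in EGFP- tubules. That sum leaves out Lrp2, Slc34a1, Slc22a6 and Slc5a2, the brightest markers of this list, as they lacked a value on some array. Mean levels of these genes were 2.87, 2.41, 2.10 and 0.63 in EGFP+ and 7.46, 7.13, 7.03 and 6.09 in EGFP- tubules. The 8 endothelial markers were all lower (4.13 to 5.47 in EGFP+, 42.5 to 73.6 in ALL, 53.1 to 87.2 in EGFP-), as were all 6 podocyte markers (0.449 to 1.48 in EGFP+, 26.1 to 61.1 in ALL, 35.4 to 71.1 in EGFP-). Of 9 stromal and smooth muscle markers 6 were lower (3.28 to 5.19 in EGFP+, 17.5 to 29.4 in ALL, 21.9 to 34.1 in EGFP-), and of 8 leukocyte markers 5 (0.856 to 1.38 in EGFP+, 4.88 to 12.03 in ALL, 6.09 to 14.5 in EGFP-). For the collecting duct, all 6 principal cell markers were lower (1.80 to 3.28 in EGFP+, 26.6 to 30.3 in ALL, 30.7 to 35.4 in EGFP-). Of 7 urothelial markers only 1 was tested, and it did not pass. The others were well above background on too few of the 12 arrays, and 5 of the 7 on no EGFP+ array. All 5 markers of the thick ascending limb were higher, with a summed level over 3 of them of 26.7 to 36.2 in EGFP+, 12.8 to 19.8 in ALL and 10.8 to 21.9 in EGFP- tubules. Umod and Kcnj1, the brightest of these markers, lacked a value on some array and are not in the sum. Their mean levels were 7.84 and 7.55 in EGFP+, 6.46 and 5.65 in ALL and 5.91 and 4.09 in EGFP- tubules. Of 5 tested markers of the thin limb and inner medulla 2 were higher and 1 lower, of 5 of intercalated cells 1 was higher and 2 lower, and all 3 tested markers of parietal epithelium were lower. The part of these cells in the members' differences was not tested.

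Related genes were followed in 5 lists, each gene by its brightest tested probe, with 32.1% of all 17071 genes higher and 25.7% lower in EGFP+ than in EGFP- tubules and a median of 0.11. The counts include genes measured on few or no arrays of 1 fraction, which entered the tests through the others, so a lower call there was favoured. In the injury and ligand lists this fraction was mostly EGFP+. A fold given as at least means that no array of the lower fraction measured the gene at that probe. Of 42 tested injury and repair genes other than the members, 5 rose, 26 fell and 11 did not pass, with a median of -2.55, or -1.58 with 8 genes at their bound. The summed level over 41 of them ran the other way, with 335.5 to 376.1 in EGFP+, 178 to 301.7 in ALL and 158.2 to 279.6 in EGFP- tubules. In EGFP+ tubules Spp1 and Clu were the brightest, at 7.72 and 6.62, against 6.93 and 2.86 in EGFP-. Ccn2, which was lower (-3.04 ± 0.33), lacked a value on some array and is not in the sum. Among the higher ones were Sox9, a developmental factor reactivated in repair (at least 111-fold), Clu, a secreted chaperone (3.76 ± 0.16), Lgals3, a galectin (2.13 ± 0.17), and Spp1, osteopontin (0.79 ± 0.29). Among the lower ones were the fibrinogen chains Fgb (at least 31.9-fold) and Fgg (-5.29 ± 0.30), the integrin chain Itgb8 (at least 21.2-fold), Timp2, an inhibitor of metalloproteinases (-4.84 ± 0.28), and Icam1, an adhesion receptor (-4.00 ± 0.18).

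Of 17 tested keratins and other intermediate filament genes outside the members, 3 rose, 5 fell and 9 did not pass, with a median of -0.40. The higher ones were the neurofilament gene Nefm (at least 4.65-fold), Krt1 (1.14 ± 0.35) and the lamin Lmnb1 (0.89 ± 0.17). The lower ones were Nes, the nestin of podocytes (-5.44 ± 0.30), Des, the desmin of muscle and mesangium (at least 9.91-fold), Krt23 (-3.65 ± 0.47), Synm (at least 6.84-fold) and Krt20 (at least 2.23-fold). Of 18 keratin partners and junction genes, 9 rose, 3 fell and 6 did not pass, with a median of 0.47. They included the adhesion protein Epcam (3.29 ± 0.22), the desmosomal cadherin Dsg2 (3.19 ± 0.53), E-cadherin Cdh1 (2.59 ± 0.14) and Dsp, which anchors keratins to desmosomes (1.83 ± 0.28). N-cadherin Cdh2 was at least 8.60-fold lower, and Evpl, a cross-linker of the cell envelope, was lower (-2.04 ± 0.21). On the floor used for Cd44, Trp63 was 1.40-fold lower, with 3 EGFP- arrays and 0 EGFP+ arrays well above background.

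Of 19 ligands, receptors and relatives of the members, 3 rose, 12 fell and 4 did not pass, with a median of -1.45. The integrin chain Itga4, a receptor for Vcam1, was at least 9.82-fold lower, Itga9 was lower (-4.25 ± 0.24), and Mmp2, a matrix protease, was at least 14.6-fold lower. Nf2, merlin, which binds the Cd44 tail, was higher (0.92 ± 0.10), and Slc22a17, a receptor for Lcn2, was 1.42-fold higher. Of 16 NF-kappaB and interferon response genes, 1 rose (Stat3, 0.96 ± 0.12), 7 fell and 8 did not pass, with a median of 0.15. The lower ones included Il1b (-3.88 ± 0.54, well above background on 1 of 4 EGFP+ arrays) and Ccl5 (-2.94 ± 0.46).

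**Figure D5:**
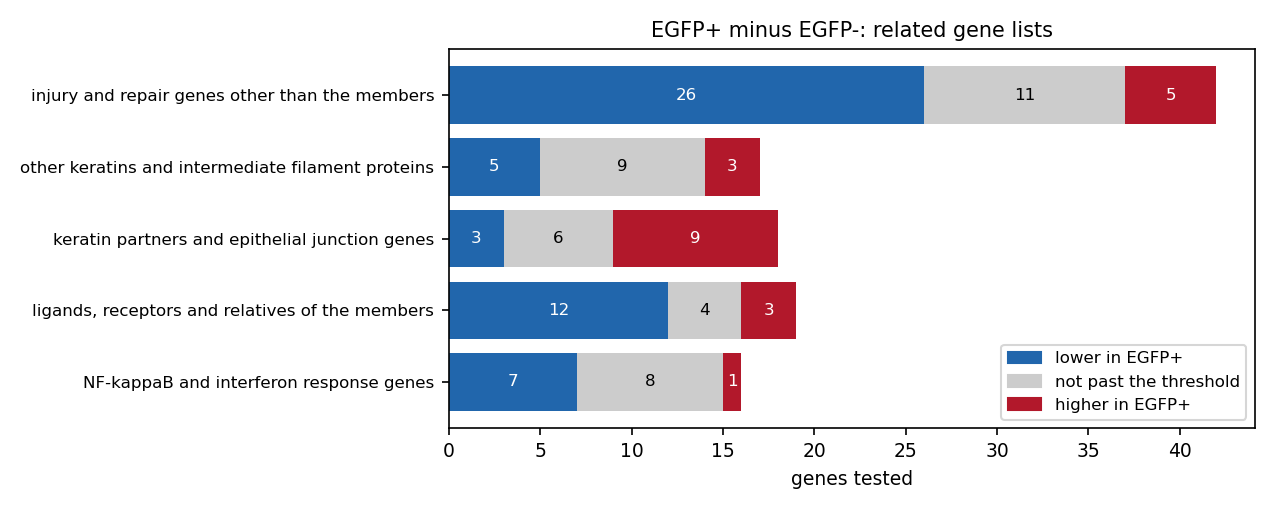
Number of tested genes (horizontal axis) in each related list that were lower (blue), not past the threshold (grey) or higher (red) in EGFP+ than in EGFP- tubules. Lower genes make up 26 of 42 in the injury list, and higher genes 9 of 18 in the list of keratin partners and junctions. The counts include genes that few or no EGFP+ arrays measured, for which a lower call was favoured.

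The genes whose level followed each member most closely over the 12 arrays were found among 25310 probes with a value on every array, and the correlations are descriptions that share the arrays and their fractions. Timd2 and Ces1g followed Havcr1 (Pearson r = 0.994 for both). Timd2 is a relative of Havcr1, with 1 predicted gene (Gm12174) between them in GRCm38.p6. It was itself lower in EGFP+ tubules (-5.26 ± 1.36), where 2 of 4 arrays were well above background. Its probes share no run over 6 bases with those of Havcr1. F2r and Akap12 followed Vim (0.999 for both), Mmp14 and Ccdc88b followed Cd44 (0.996 and 0.990), and Prkca and Sncg followed Vcam1 (0.987 for both). Megf9 and Abcc1 followed Krt7 (0.998 and 0.996), Il17re followed Krt18 (0.990), and Pgap1 and Fam110b followed Sox4 (0.996 for both). Krt8 had the least close followers of the 8 genes, Exosc1 (0.970) and Elp6 (0.963).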

How the data were processed

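The deposited scanner files hold intensities on a linear scale from one-colour Agilent arrays (design 014868, Cy3), and per the file headers the authors read them with Feature Extraction 9.5.3.1, which had background-corrected the processed signal. Per the labels' protocols, an Ambion microRNA kit was used for extraction and an Agilent low-input kit for amplification. The value table of the series was not used here. Control and outlier-flagged spots (66 to 516 per array) were left out, the log2 values of a probe's spots were averaged, and the array's 75th percentile was subtracted. A probe was called well above background on an array where the software marked no fewer of its spots so than otherwise. Probes well above background on at least 4 arrays were tested with limma 3.58.1 in R 4.3.3 (with statmod 1.5.0 and version 1.17.8 of the package data.table), with 1 coefficient per fraction over 12 arrays and Benjamini-Hochberg adjustment over all 25819 tested probes. For sex, the values of a mouse's arrays were averaged first. The code was tested on simulated data in which arrays were drawn independently, so the pairing by mouse was not covered. Precision is limited by how many arrays there are.

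The members and lists were chosen with earlier results of these data known. Every member probe is named. From each list at least the 2 largest differences in each direction are named, and for likeness the 2 genes with the highest correlation, except that some genes are not reported here. Of 41174 probes, 24375 took their name from an accession, 6301 from a current symbol, 2426 from an older one and 8072 from the file. The mouse pairs the fractions, since the labels give the animal, but the main fits did not use this pairing. The deviations of same-mouse arrays from their fraction means correlated at 0.225 to 0.807, against -0.677 to 0.586 between mice. Alternatives were normexp background correction (offset 50), median and quantile scaling, other filters, mouse or slide as a block, values within slides, single mice left out, 1 probe per gene, only the compared arrays and outlier spots kept. The counts over probes well above background on every array, and the floor for Havcr1 and Vcam1, were chosen after seeing the data.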

Additional observations from a re-analysis of the deposited data

Results flagged for a closer look

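In 3 of the 33 groups of 4 arrays looked at, 1 array lay far from the other 3 relative to the group's whole range, which chance alone gives in about 1 in 20 groups. The level of Krt8 probe A_51_P242399 on the EGFP+ array of mouse 1 was 3.85, below the other EGFP+ arrays. That of Krt8 probe A_51_P242400 on the EGFP+ array of mouse 4 was 3.75, also below the others. The EGFP+ levels of both probes span a narrow range, so the gaps are small in themselves. Krt18 on the EGFP- array of mouse 4 had a level of 1.78, below the other EGFP- arrays. No member's EGFP+ minus EGFP- difference depended on sex past the threshold, although for Havcr1 the dim female EGFP+ arrays could not measure this.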

How the results depend on the processing

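Refits kept direction and side of the threshold in 455 of the members' values, while 3 newly passed, 13 no longer passed and 5 turned sign, 2 of them among the 13. Within slides, whose arrays are of different mice and sexes, 85 values moved by less than the spread between replicates and 14 by more. With mouse as a replicate block, 16627, 16077 and 398 probes passed for EGFP+ minus EGFP-, EGFP+ minus ALL and ALL minus EGFP-, against 14631, 13931 and 279, and 9, 9 and 0 member probes, with no member call changed.

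Normexp correction turned Vcam1 probe A_52_P520495 to 0.55 and Cd44 probe A_52_P229536 to 0.19 for EGFP+ minus EGFP-, and to 0.74 and 0.50 for ALL minus EGFP-. It left 7859 probes and 5 member probes for EGFP+ minus ALL, against 13931 and 9, and 184 probes for ALL minus EGFP-. The cause was not tested. With slide as a block, Havcr1 was 0.06 for ALL minus EGFP-. Requiring all 12 arrays above background left 5 member probes past the threshold against EGFP- and 5 against ALL, as fewer were tested. The fit on only the 8 arrays compared passed 153 probes for ALL minus EGFP-. Leaving out 1 mouse gave 12435 to 13993 probes for EGFP+ minus EGFP-, 11514 to 13030 for EGFP+ minus ALL and 103 to 330 for ALL minus EGFP-, with 103 without mouse 2, 114 without mouse 3 and 139 without mouse 1. It gave 8 to 11 and 8 to 10 member probes against EGFP- and ALL. For male minus female, 272 probes passed, against 53 without the filter and 894 with mouse as a random block. For the dependence on sex limma passed 0 probes, with 2947 at an unadjusted p under 0.05. Median scaling moved the median of all probes to 0.30 in place of 0.14 and, for EGFP+ minus ALL, made 67.7% of calls higher in place of 57.6%. Signals near background limit Lcn2, Krt19, Cd44, Vcam1 and Havcr1.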
